A study of Mus musculus with 27 samples.

Results

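Pancreatic acinar genes were followed across 27 bulk RNA sequencing libraries of sorted mouse cells. The 32 genes, of 54446 gene identifiers in the tables, are textbook products and regulators of the exocrine pancreas and were chosen by symbol. They comprise 14 proteases, 1 trypsin inhibitor, 5 lipases or lipase cofactors, 3 amylase or nuclease genes, 4 granule proteins, 3 Reg proteins and 2 transcription factors. All 32 were found in every table. Each level is given in CPM, a gene's reverse-strand read count divided by all reads that fell in genes of that library and multiplied by 1000000.

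The libraries came from mice of the non-obese diabetic (NOD) background, aged 12 weeks, a strain that develops autoimmune diabetes. Mice labelled TG- had the genotype NOD/ShiLtJ, and mice labelled TG+ were Ins2-CCL21 NOD, in which an insulin promoter drives the chemokine CCL21. By label, pancreatic islets gave 8 libraries of CD45 cells (lymphocytes of infiltrates, 4 TG- and 4 TG+), 4 of gp38-high cells (2 and 2) and 8 of gp38-low cells (4 and 4), the gp38 cells being described as reticular-cell-like stroma of lymphoid tissue that forms in islets. Skin-draining lymph nodes gave 7 libraries of fibroblastic reticular cells, or LN FRC (4 TG- and 3 TG+). The labels do not tie a library to an animal, and the spread behind each p-value is that between libraries, part or all of which may be technical. Reads in genes numbered 8517844 to 25194443 per library, with a median of 14580571, so that 1 read was worth 0.0397 to 0.117 CPM. Where a gene had no read, up to 3 counts remain possible, equal to 0.119 CPM in the deepest library and 0.352 CPM in the shallowest. Intervals and floors here cover counting error only, since copies made by PCR are not independent molecules.

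Labels and sort-marker genes disagreed in 14 of the 27 libraries (7 of 8 labelled CD45, 5 of 7 labelled LN FRC, 1 of 4 labelled gp38-high and 1 of 8 labelled gp38-low). In these libraries Ptprc, which encodes CD45, and Pdpn, which encodes gp38, were the opposite way round from the label. Every library below is therefore the library labelled with its group. To describe levels, the libraries were also placed in 4 ranges of measured values, taken in this order: Ptprc above 100 CPM (8 libraries, called Ptprc-high), Ccl21a above 1000 CPM (7, Ccl21a-high), Msln above 100 CPM (4, Msln-high), and none of these (8, the remaining libraries). Ccl21a encodes a chemokine of lymphoid stroma and Msln encodes mesothelin of the mesothelium. These ranges were set on the measured values, so no test was made between them. By the marker lists, the sum of 8 leukocyte genes lay between 7096 and 14035 CPM in the Ptprc-high range and did not exceed 314.9 CPM outside it. The sum of 8 fibroblast genes was 11257 to 36387 CPM in the other 3 ranges and at most 153.6 CPM in the Ptprc-high libraries.

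Acinar cells make up most of the exocrine pancreas and secrete digestive enzymes, most of the proteases among them as inactive zymogens packed in granules. Trypsin activates the other zymogens in the gut, and the trypsin inhibitor Spink1 guards against activation inside the pancreas. The transcription factor Ptf1a is the DNA-binding core of a complex, PTF1, that drives enzyme genes through a paired motif of an E box and a TC box, and Bhlha15 (also called Mist1) organises secretion in acinar and other secretory cells, plasma cells included.

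Many of the genes stand in clusters in the GRCm38 annotation (GENCODE release M21). Chromosome 6 holds 10 of the 32, and 6 of these, the trypsin genes Prss1, Prss2, Prss3, Try4, Try5 and Try10, lie inside the T cell receptor beta locus (chromosome 6, 40891229 to 41558452). The lipase genes Pnlip, Pnliprp1 and Pnliprp2 are neighbours on chromosome 19, and Reg1, Reg2 and Reg3b lie near each other on chromosome 6. The chymotrypsin gene Ctrb1 (ENSMUSG00000031957.6) lies on chromosome 8, 111686519 to 111691010, and the carboxypeptidase gene Cpa1 (ENSMUSG00000054446.8) on chromosome 6, 30639218 to 30645363. Annotated transcripts were compared in stretches of 50 bases, because reads that map to several places were not counted. For 18 of the 32 genes no stretch occurred in a transcript of another gene. For 10 genes more than 10% did: Prss3 (66.1%), Try4 (65.6%), Prss1 (54.9%), Amy2a5 (53.5%), Try5 (47.6%), Try10 (40.8%), Amy2b (40.25%), Cela3b (19.25%), Ctrc (17.7%) and Cela2a (15.6%). Levels of these 10 are uncertain for that reason. Ctrc and Cela2a share exons on the same strand, where reads count as ambiguous, and the model named Amy2b is annotated as an unprocessed pseudogene.

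The RefSeq promoter table (build GRCm38.p6; 250 bases before to 50 bases after the start) held 26 of the 32 genes. Letters were searched on both strands. The E box CACCTG occurred in 15 of these 26 windows, against 20.2% of all 32851 windows in the table. The TC box TTTCCC occurred in 11 of 26, against 25.25% of all windows, and TATAAA in 13 of 26, against 13.6%. Both the E box and the TC box occurred in 7 of 26 (Amy2b, Cel, Cela1, Cela2a, Prss1, Prss2 and Reg3b), against 4.86% of all windows. A match says only that these letters are present. The 6 windows printed here are those that the values below turn on: an elastase and a lipase gene with both boxes, the trypsin genes with the highest and the lowest level, and the pair of amylase genes. Each runs 5′ to 3′ on the gene's strand, and capitals mark a match to any of these 3 motifs or its reverse complement.
Cela1 (chr15:100687871-100688170, minus strand): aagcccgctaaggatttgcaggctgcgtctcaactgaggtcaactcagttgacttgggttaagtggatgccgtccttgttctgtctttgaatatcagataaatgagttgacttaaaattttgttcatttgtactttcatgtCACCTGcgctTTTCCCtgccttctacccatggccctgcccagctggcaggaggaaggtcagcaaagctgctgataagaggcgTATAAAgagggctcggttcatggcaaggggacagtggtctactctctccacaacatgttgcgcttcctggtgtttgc
Cel (chr2:28563354-28563653, minus strand): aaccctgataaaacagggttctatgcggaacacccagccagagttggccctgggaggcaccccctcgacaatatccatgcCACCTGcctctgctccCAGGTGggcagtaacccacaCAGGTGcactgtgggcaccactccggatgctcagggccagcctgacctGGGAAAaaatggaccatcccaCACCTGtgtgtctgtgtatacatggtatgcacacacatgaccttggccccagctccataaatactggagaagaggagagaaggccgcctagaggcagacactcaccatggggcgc
Prss2 (chr6:41521526-41521825, plus strand): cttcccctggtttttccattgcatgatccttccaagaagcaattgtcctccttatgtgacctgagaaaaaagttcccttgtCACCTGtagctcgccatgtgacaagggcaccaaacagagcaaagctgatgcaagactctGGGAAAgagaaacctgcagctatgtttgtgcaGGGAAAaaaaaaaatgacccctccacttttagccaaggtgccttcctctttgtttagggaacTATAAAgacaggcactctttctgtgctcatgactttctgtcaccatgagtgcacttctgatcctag
Prss1 (chr6:41458680-41458979, plus strand): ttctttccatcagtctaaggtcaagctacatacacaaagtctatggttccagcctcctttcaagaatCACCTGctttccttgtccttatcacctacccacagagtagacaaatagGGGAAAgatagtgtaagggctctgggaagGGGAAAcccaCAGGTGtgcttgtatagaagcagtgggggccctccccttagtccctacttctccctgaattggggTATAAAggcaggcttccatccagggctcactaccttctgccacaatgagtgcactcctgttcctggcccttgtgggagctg
Amy2b (chr3:113156678-113156977, minus strand): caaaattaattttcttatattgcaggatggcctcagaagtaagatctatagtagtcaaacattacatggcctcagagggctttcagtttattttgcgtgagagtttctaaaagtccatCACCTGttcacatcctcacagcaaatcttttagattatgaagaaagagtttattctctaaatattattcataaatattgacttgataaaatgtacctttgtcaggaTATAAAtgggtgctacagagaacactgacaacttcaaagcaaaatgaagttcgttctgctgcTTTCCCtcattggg
Amy2a5 (chr3:113258650-113258949, minus strand): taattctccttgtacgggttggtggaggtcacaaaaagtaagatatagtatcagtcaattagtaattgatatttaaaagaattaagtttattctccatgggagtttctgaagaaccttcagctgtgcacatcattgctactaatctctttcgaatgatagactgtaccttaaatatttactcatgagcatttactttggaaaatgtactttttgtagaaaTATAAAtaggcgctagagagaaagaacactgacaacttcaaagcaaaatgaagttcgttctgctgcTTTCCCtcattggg
In the elastase gene Cela1 the E box began 109 bases before the start and the TC box 99 bases before it, both on the gene's strand. In the lipase gene Cel there were 4 E boxes, beginning 170, 154, 134 and 65 bases before the start, and a TC box on the opposite strand at 86 bases. Prss1 and Prss2 both carried an E box, a TC box and TATAAA, and their windows had no identical run longer than 11 bases. The windows of Amy2a5 and Amy2b shared an identical run of 58 bases at their ends near the start, and the E box was in that of Amy2b, 132 bases before the start.

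Acinar transcripts were present in libraries of every labelled group and nearly absent from 7 libraries of 4 of these groups. The sum over the 32 genes ran from 1.40 CPM in CD45 TG- replicate 3 to 18213 CPM in CD45 TG+ replicate 4, where these genes took 1.82% of the reads in genes. All 7 Ccl21a-high libraries lay at 1.40 to 4.73 CPM (median 3.46). All other 20 libraries lay at 159 CPM or above, at least 33.6 times the highest Ccl21a-high library. The Ptprc-high libraries held 489.5 to 6194 CPM (median 1395), the Msln-high libraries 159 to 980.4 CPM (median 301.4) and the remaining libraries 165 to 18213 CPM (median 4893). In bulk libraries, fewer acinar cells and less acinar RNA per cell cannot be told apart. Whether the libraries held acinar cells at all, or only their RNA, was not tested.

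**Figure D1:**
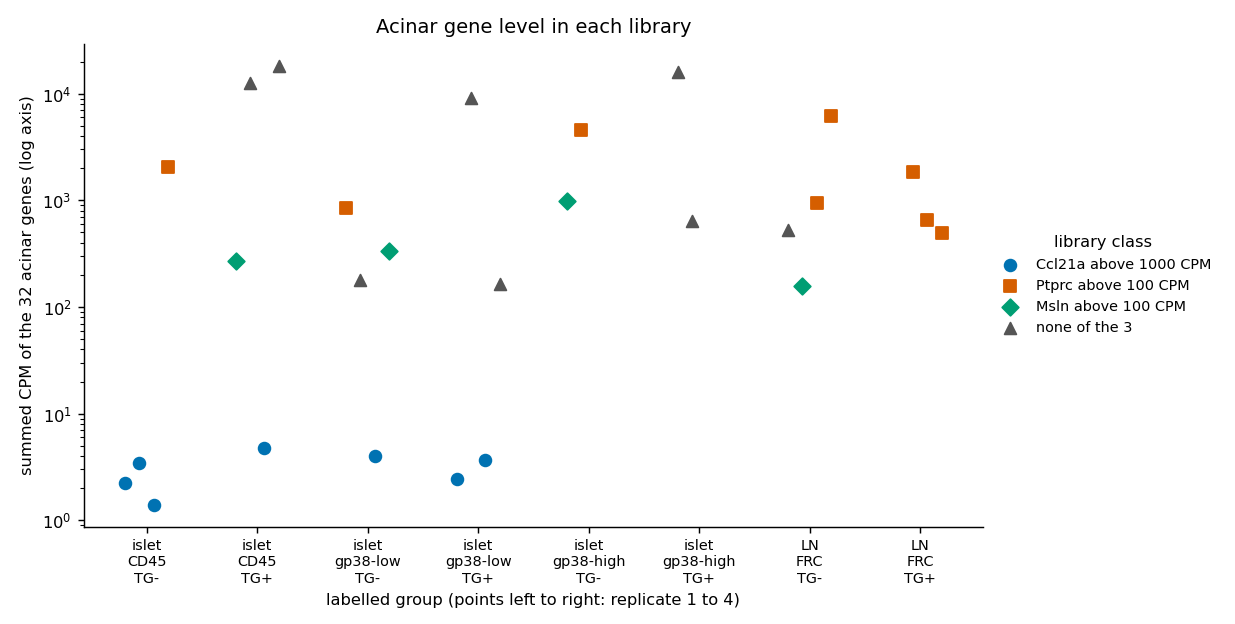
Summed CPM of the 32 acinar genes (log axis) in each of the 27 libraries, by labelled group, with 1 point a library and the symbol showing the range of measured values it fell in. The 7 Ccl21a-high libraries sit between 1.40 and 4.73 CPM and the other 20 at 159 CPM or above.

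The acinar signal did not follow the labelled tissue. All 7 libraries labelled as lymph node held at least 159 CPM, up to 6194 CPM in LN FRC TG- replicate 4. Of the 20 libraries labelled as islet, 7 held under 5 CPM, and these were the 7 Ccl21a-high libraries. Within the group labelled CD45 TG-, replicates 1, 2 and 3 held 2.25, 3.46 and 1.40 CPM and replicate 4 held 2046 CPM. Within CD45 TG+, the 4 libraries held 267, 12640, 4.73 and 18213 CPM, so that libraries of 1 labelled group spanned most of the range of the whole series.

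The 8 remaining libraries, which held fibroblast genes but little Ptprc, Ccl21a or Msln, fell apart by acinar level. In 4 of them, gp38-low TG+ replicate 2, CD45 TG+ replicate 2, gp38-high TG+ replicate 1 and CD45 TG+ replicate 4, the sum was 9150, 12640, 16022 and 18213 CPM. In the other 4, gp38-low TG+ replicate 4, gp38-low TG- replicate 2, LN FRC TG- replicate 1 and gp38-high TG+ replicate 2, it was 165, 178, 525 and 637 CPM. No library lay between these sets. Markers of other pancreatic cell types moved with the acinar genes here. The sum of 10 ductal genes was 3033 to 3740 CPM in the 4 high libraries and 343 to 1565 CPM in the other 4, and the sum of 9 islet endocrine genes was 331 to 648 CPM against 36.2 to 47.8 CPM. The sum of 8 fibroblast genes overlapped (26474 to 29990 against 26952 to 36387 CPM). Of these lists, no gene was at 0 in all 8 libraries. The part of these markers in the acinar result was not tested.

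Among the Ptprc-high libraries the order of the acinar sum was LN FRC TG+ replicate 4 (489.5 CPM), LN FRC TG+ replicate 3 (650), gp38-low TG- replicate 1 (841), LN FRC TG- replicate 3 (939), LN FRC TG+ replicate 2 (1852), CD45 TG- replicate 4 (2046), gp38-high TG- replicate 2 (4518) and LN FRC TG- replicate 4 (6194). The islet endocrine genes summed to 7.94 to 296 CPM in these libraries and were highest in the same 2, gp38-high TG- replicate 2 (296 CPM) and LN FRC TG- replicate 4 (258 CPM). Ductal genes were low in all 8, at 9.21 to 30.9 CPM, below their 42.55 to 76.4 CPM in the Ccl21a-high libraries. In the Msln-high libraries the acinar sum was 159 (LN FRC TG- replicate 2), 267 (CD45 TG+ replicate 1), 336 (gp38-low TG- replicate 4) and 980 CPM (gp38-high TG- replicate 1), and ductal genes summed to 1395, 1505, 2278 and 4407 CPM in the same order. Islet endocrine genes summed to 0.842 to 2.34 CPM there. The keratin gene Krt19, on the ductal list, was at 586 to 701.5 CPM in the Msln-high libraries and 31.9 to 139 CPM in the remaining libraries. The ductal sum of the Msln-high libraries can therefore not be taken as ductal RNA alone. The part of the ductal markers was not tested.

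**Figure D2:**
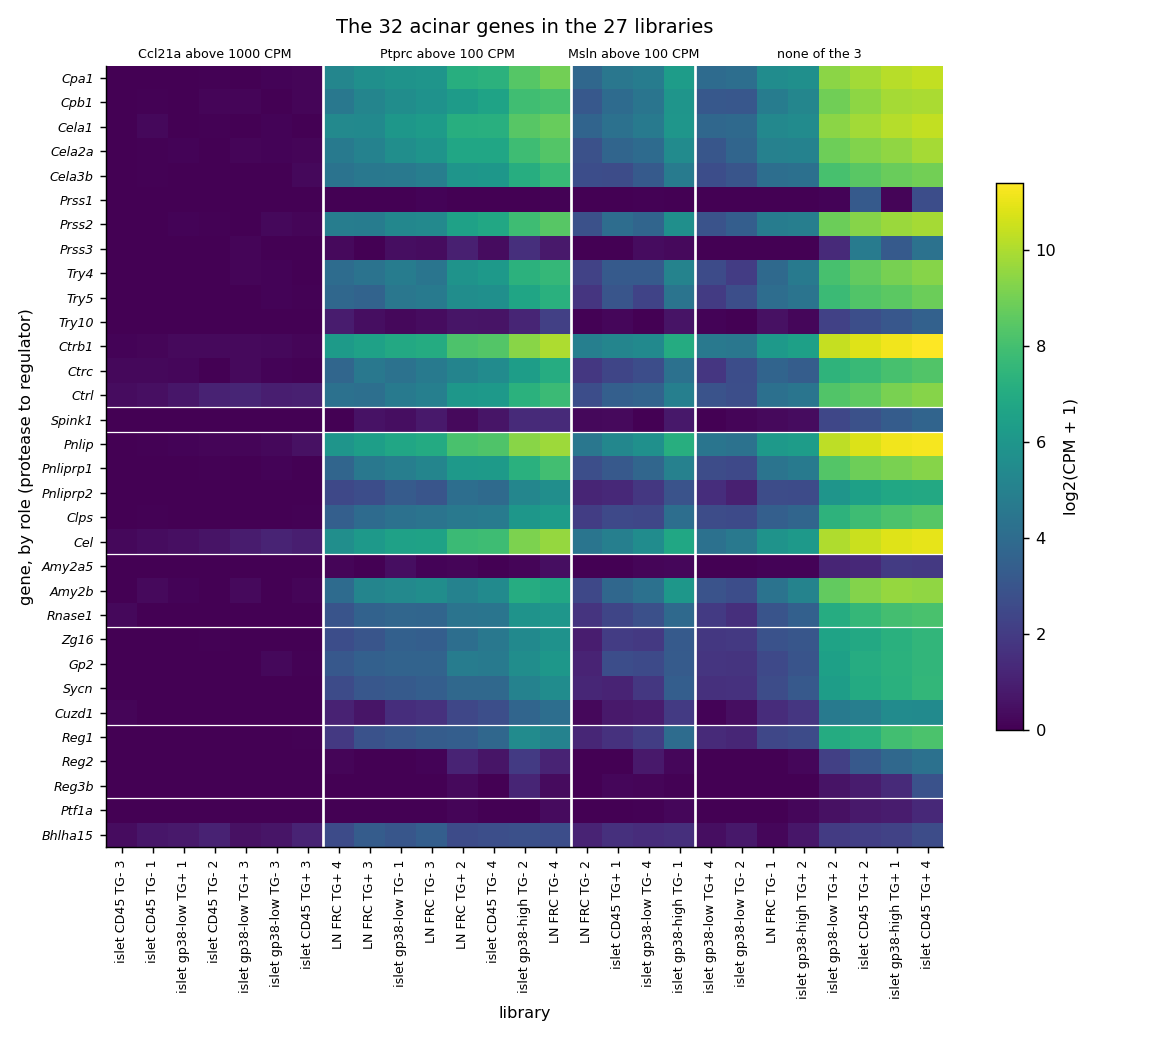
Levels of the 32 acinar genes, as log2(CPM + 1), in the 27 libraries, with genes grouped by role from proteases at the top to transcription factors at the bottom and libraries grouped by range and ordered by summed level. Most genes darken and brighten together, while Bhlha15 is brightest in the Ptprc-high libraries (5.003 to 9.56 CPM) and Prss1 stands out in 2 libraries (8.36 and 5.38 CPM).

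Proportions among the acinar genes were taken in the 20 libraries with at least 1000 acinar reads. To allow for gene length, proportions were computed from reads per kilobase of exon, as a share of the 32 genes. Proteases made up a median of 65.05% (range 60.0 to 69.8%), lipases and colipase 23.1% (20.8 to 26.0%), amylase and nuclease genes 5.81% (3.005 to 7.755%), granule proteins 4.27% (3.27 to 5.61%) and Reg proteins 1.40% (0.816 to 2.56%). Spink1 made up 0.0907% and the pair of transcription factors 0.1002%. All these shares count uniquely mapped reads only. Amy2a5 and Amy2b share 53.5% and 40.25% of their 50-base stretches with transcripts of other genes. The amylase share can therefore not be read as the share of all amylase RNA. On this per-length scale the chymotrypsin Ctrb1 led in share, with a median of 22.1%, followed by the lipase Pnlip (8.64%), the trypsin Prss2 (8.49%), the lipase Cel (7.33%) and Cpa1 (6.09%).

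Over the 32 genes and these 20 libraries, Pearson's r of log2(CPM + 1) between 2 libraries was 0.891 to 0.997 (median 0.969, 190 pairs), 0.919 to 0.997 within a range and 0.891 to 0.9925 between ranges. These are descriptions over genes that are not independent, and libraries share the gene lengths and the gene-specific loss of reads. Across the same 20 libraries, 23 of the 32 genes had an r above 0.97 with the mean of the other 31. The 9 others were Spink1, Try10, Prss3, Prss1, Amy2a5, Reg2, Reg3b, Ptf1a and Bhlha15. These 9 were also the genes with the fewest reads in the 20 libraries, from 72 (Ptf1a) to 1053 (Bhlha15). Each of the 23 had at least 3190 reads. The part of low counts and of the pseudocount in the lower r was not tested.

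Each gene's share of the acinar reads was compared between the libraries where it was lowest and highest, and the 95% Wilson intervals of these shares did not overlap for 28 of the 32 genes. Both libraries were picked out of 20 by the share itself, which favours intervals that do not overlap, so the count is a description with no test. The share ran from 6.29 to 8.30% for Cela1 (1.32 times) and from 9.86 to 13.6% for Cel (1.38 times). The highest share was 3.78 times the lowest for Amy2b, 3.07 times for Reg1 and 59.2 times for Bhlha15.

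Among the proteases, Ctrb1, a chymotrypsinogen, had the largest share per length. It stood at 0.0638 to 0.2365 CPM in the Ccl21a-high libraries, 29.1 to 129.7 CPM in the 4 Msln-high and 73.9 to 1026 CPM in the 8 Ptprc-high libraries. In the remaining 8 libraries it was at 23.5, 22.2, 68.8 and 88.0 CPM in the set with low acinar level and at 1333, 1811, 2250 and 2697 CPM in the other. The lowest of the last 4 values was thus above every other library. Its share of acinar reads ran from 12.5% (95% interval 10.9 to 14.2%) in gp38-low TG- replicate 2 to 18.3% (16.9 to 19.8%) in LN FRC TG- replicate 2. Cpb1, a carboxypeptidase that removes basic residues, had a median of 0.0562 CPM in the Ccl21a-high libraries and reached 984 CPM in CD45 TG+ replicate 4, and Ctrl, a chymotrypsin-like protease, reached 633 CPM there. The carboxypeptidase Cpa1, the elastase genes Cela1, Cela2a and Cela3b, and Ctrc, which can degrade trypsin, had r of 0.986 to 0.996 with the mean of the other genes over 20 libraries.

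The trypsin genes split into 3 abundant and 3 scarce ones. On the per-length scale, Prss2, Try4 and Try5 took median shares of 8.49, 5.375 and 3.77% in the 20 libraries outside the Ccl21a-high range, and Try10, Prss3 and Prss1 took 0.0648, 0.0351 and 0%. Try10, Prss3 and Prss1 had 600, 1024 and 250 reads in those libraries together. Prss1 was at 8.36 CPM in CD45 TG+ replicate 2 and 5.38 CPM in CD45 TG+ replicate 4. It was at or below 0.126 CPM in each of the other 25 libraries, including gp38-high TG+ replicate 1, whose acinar sum lay between those 2. Prss3 was at 26.0, 18.5, 8.38 and 1.58 CPM in CD45 TG+ replicate 2, CD45 TG+ replicate 4, gp38-high TG+ replicate 1 and gp38-low TG+ replicate 2. In the other 23 libraries Prss3 was at most 1.92 CPM. The highest Prss3 level was thus not in the library with the highest acinar sum, and its ratio to Prss2 reads reached 4.04% against a median of 0.417%. Both genes share 54.9% (Prss1) and 66.1% (Prss3) of their 50-base stretches with transcripts of other genes. Try10 followed the sum more closely, at 10.5 CPM in CD45 TG+ replicate 4, 7.56 in gp38-high TG+ replicate 1, 5.77 in CD45 TG+ replicate 2, 3.67 in gp38-low TG+ replicate 2 and 3.41 in LN FRC TG- replicate 4. It was at most 1.24 CPM in the other 22 libraries.

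Spink1, the trypsin inhibitor, had 634 reads in the 20 libraries. It was at 4.39, 6.11, 8.88 and 11.6 CPM in the 4 libraries with the highest acinar sum, at most 1.57 CPM elsewhere and without a read in all 7 Ccl21a-high libraries. The order of the 4 was that of the sum.

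Lipase genes took the largest share after the proteases. Pnlip, the main pancreatic triglyceride lipase, was at 0 to 0.414 CPM in the Ccl21a-high libraries, 21.9 to 138.9 CPM in the Msln-high, 60.2 to 859.7 CPM in the Ptprc-high and 18.75 to 2409 CPM in the remaining libraries. Cel, the lipase activated by bile salts, stood at 0.1915 to 1.19 CPM in the Ccl21a-high libraries and reached 2041 CPM in CD45 TG+ replicate 4. The ratio of the reads of these genes differed between the ranges: Pnlip had 80.4 to 136% of the Cel reads in each of the other 20 libraries (median 120%), and 14 against 60 reads in the 7 Ccl21a-high libraries together. Pnliprp1, a lipase relative, reached 651 CPM in CD45 TG+ replicate 4 and 249 CPM in LN FRC TG- replicate 4. Clps, the colipase that anchors Pnlip to fat droplets, varied more. Its share of acinar reads was 1.24% (95% interval 1.18 to 1.30%) in LN FRC TG- replicate 4 and 3.24% (2.60 to 4.02%) in gp38-low TG+ replicate 4.

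Of the amylase genes Amy2b and Amy2a5, nearly all reads were counted under Amy2b, whose per-length share had a coefficient of variation of 33.7% over 20 libraries, against 9.35% for Ctrb1. Amy2b was at 0 to 0.225 CPM in the Ccl21a-high, 4.555 to 64.45 CPM in the Msln-high, 14.96 to 133 CPM in the Ptprc-high and 5.47 to 773 CPM in the remaining libraries. Amy2a5, another amylase gene of the same cluster on chromosome 3, had 162 reads in the 20 libraries and never exceeded 2.90 CPM. Its median per-length share was 0.00351%, against 3.66% for Amy2b. Reads that map to several places were not counted, and 53.5% (Amy2a5) and 40.25% (Amy2b) of their 50-base stretches occur in other genes. The exon lengths used also differed, at 3973 and 1577 bases. These shares can therefore not rank the RNA of the amylase genes. Among the Ptprc-high libraries, the Amy2b share of acinar reads was 1.74% (95% interval 1.55 to 1.95%) in LN FRC TG+ replicate 2, 1.83% in LN FRC TG- replicate 4, 2.06% in CD45 TG- replicate 4 and 2.94% in gp38-high TG- replicate 2. In LN FRC TG+ replicate 4 the share was 3.06%, and in gp38-low TG- replicate 1, LN FRC TG- replicate 3 and LN FRC TG+ replicate 3 it was 4.74, 5.05 and 5.38%. The 4 libraries with the highest acinar sums of this range thus had the 4 lowest shares. The shares of 2.94 and 3.06% lie close together, and the second rests on 130 Amy2b reads. The remaining libraries did not show this order: the share was 4.02 to 4.88% in the 4 with the highest sums and 3.07 to 5.18% in the other 4. The highest share of all was 6.57% (6.24 to 6.92%) in the Msln-high library gp38-high TG- replicate 1. Rnase1, the pancreatic ribonuclease, was at 280 CPM in CD45 TG+ replicate 4 and 63.3 CPM in LN FRC TG- replicate 4, and did not exceed 0.1915 CPM in the Ccl21a-high range. It tracked the other genes closely (r = 0.9965, 20 libraries).

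**Figure D3:**
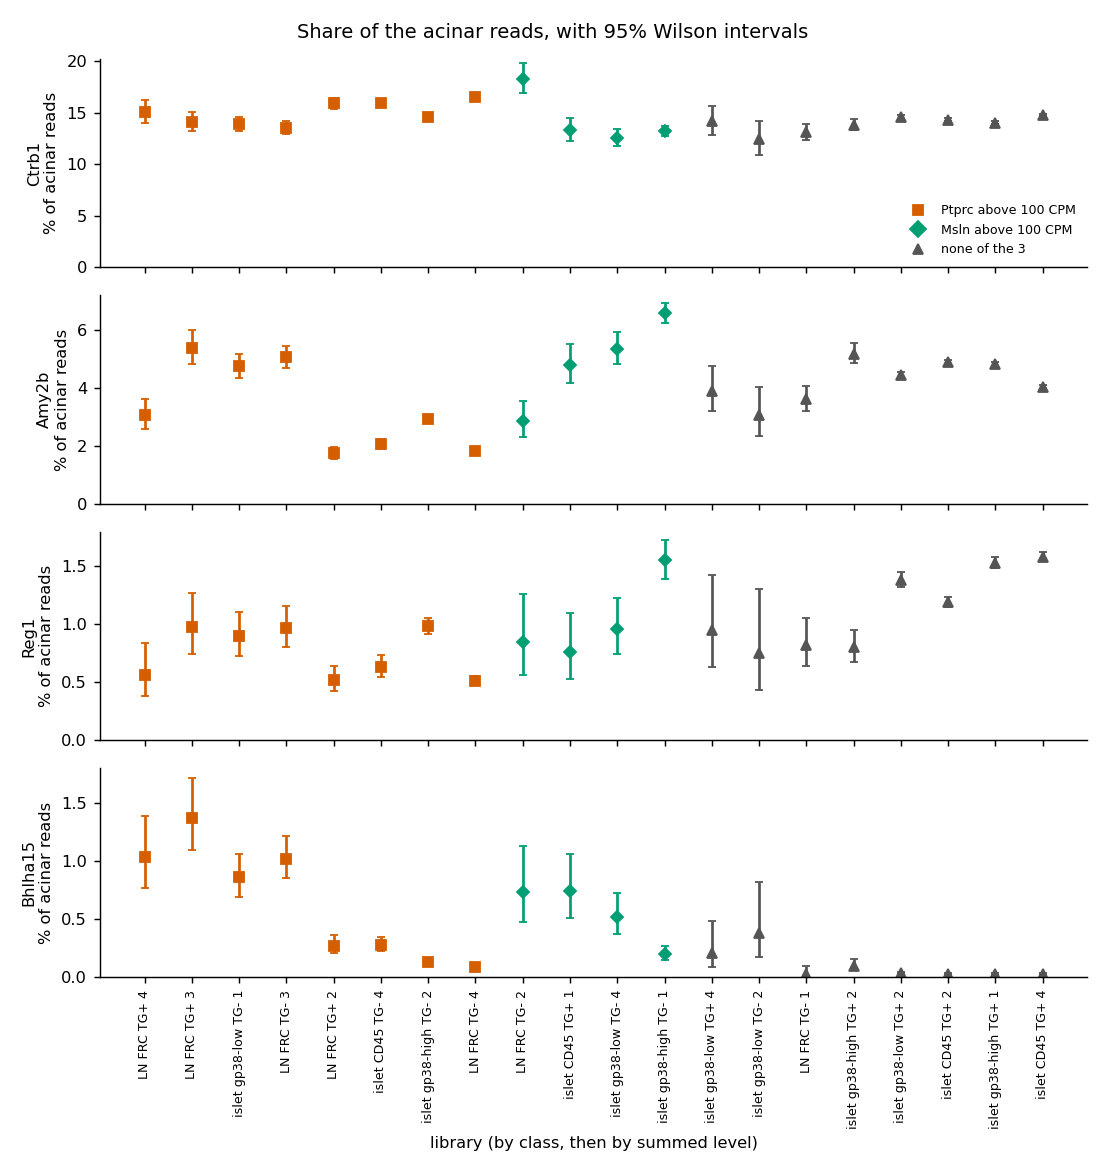
Share of the acinar reads taken by Ctrb1, Amy2b, Reg1 and Bhlha15 in the 20 libraries with at least 1000 acinar reads, with 95% Wilson intervals that cover counting error only and libraries ordered by range and summed level. Ctrb1 stays between 12.5 and 18.3%, while Amy2b runs from 1.74 to 6.57% and Bhlha15 from 0.0232 to 1.37%.

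The granule proteins Gp2 (a glycoprotein of the granule membrane), Sycn (syncollin), Zg16 and Cuzd1 were present with the enzymes. Gp2 was at 87.8, 131, 155 and 179 CPM in the 4 libraries with the highest acinar sum, in that order, and at most 64.1 CPM elsewhere. It was at 0 to 0.183 CPM in the Ccl21a-high libraries. Cuzd1, with the lowest per-length share of the group (0.153%), was at 43.4 CPM in CD45 TG+ replicate 4, 44.0 CPM in gp38-high TG+ replicate 1 and 16.5 CPM in LN FRC TG- replicate 4, and Sycn had 0 reads in the Ccl21a-high libraries. All 4 granule genes had an r of 0.987 to 0.994 with the other genes over 20 libraries.

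Reg proteins are small secreted lectins, some of them induced in injured or inflamed pancreas and gut. Reg1 was at 127, 151, 245.5 and 289 CPM in the 4 libraries with the highest acinar sum, at 44.4 CPM in gp38-high TG- replicate 2, and did not exceed 31.95 CPM elsewhere. Its share of acinar reads was 0.516% (95% interval 0.476 to 0.559%) in LN FRC TG- replicate 4 and 1.585% (1.54 to 1.63%) in CD45 TG+ replicate 4, libraries with 114574 and 335097 acinar reads. Reg3b, an antibacterial lectin, had 193 reads in the 20 libraries, 115 of them in 1 library. It was at 6.25 CPM in CD45 TG+ replicate 4, at 1.57 CPM in gp38-high TG+ replicate 1, 1.24 CPM in gp38-high TG- replicate 2, 0.807 CPM in CD45 TG+ replicate 2, and did not exceed 0.504 CPM elsewhere. Reg2 had 839 reads. Its highest ratio to Reg1 reads, 22.95% (95% interval 12.9 to 40.7%), came from 14 against 61 reads in gp38-low TG- replicate 4, and the next, 12.4%, from 11 against 89 reads in LN FRC TG+ replicate 2. In CD45 TG+ replicate 4, with 5310 Reg1 reads, the ratio was 6.18%.

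The transcription factors differed from each other in pattern. Ptf1a had 72 reads in 9 of the 20 libraries and none in the Ccl21a-high libraries. It was at 0.432, 0.692, 0.819 and 1.47 CPM in the 4 libraries with the highest acinar sum, in that order, at 0.270 CPM in LN FRC TG- replicate 4, and did not exceed 0.159 CPM elsewhere. The value in LN FRC TG- replicate 4 rests on 5 reads and those of the 4 libraries below it on 1 to 4 reads each, so differences among them were not detectable at this depth. Ptf1a had no read in the other 11 libraries outside the Ccl21a-high range.

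Bhlha15 was present in all 27 libraries and did not follow the enzymes across the ranges. It was at 5.003 to 9.56 CPM (median 5.77) in the 8 Ptprc-high libraries, at 1.17 to 1.97 CPM in the 4 Msln-high and at 0.319 to 1.18 CPM in the 7 Ccl21a-high libraries. Within the remaining libraries it did go with the enzymes. It was at 2.95, 3.34, 3.72 and 5.33 CPM in the 4 with the highest acinar sum, in the order of the sum. In the other 4 it was at 0.343, 0.670, 0.141 and 0.595 CPM. The Ptprc-high values thus overlapped only the highest of the remaining libraries, CD45 TG+ replicate 4, at 5.33 CPM. Its r with the mean of the other 31 genes was 0.462 over 20 libraries. Among the Ptprc-high libraries the 3 highest levels, 9.56, 8.92 and 7.22 CPM, were in LN FRC TG- replicate 3, LN FRC TG+ replicate 3 and gp38-low TG- replicate 1. Plasma cell genes (a list of 6) were highest in the same 3 libraries, summing to 1846, 1756 and 1414 CPM, against 563 to 859 CPM in the other 5 Ptprc-high libraries and up to 363 CPM outside this range. The plasma cell gene Jchain was at 1200, 1214 and 821 CPM in these 3, the largest part of their sums, and at most 399.6 CPM in the other 24. Xbp1 of the same list was at 190.8 to 216 CPM in the 3 and 113 to 153 CPM in the other 5. It reached 319 CPM outside this range. Irf4, also of this list, was not higher in the 3, at 179 to 211 CPM against 202 to 285 CPM in the other 5. The part of plasma cells in the Bhlha15 level was not tested.

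**Figure D4:**
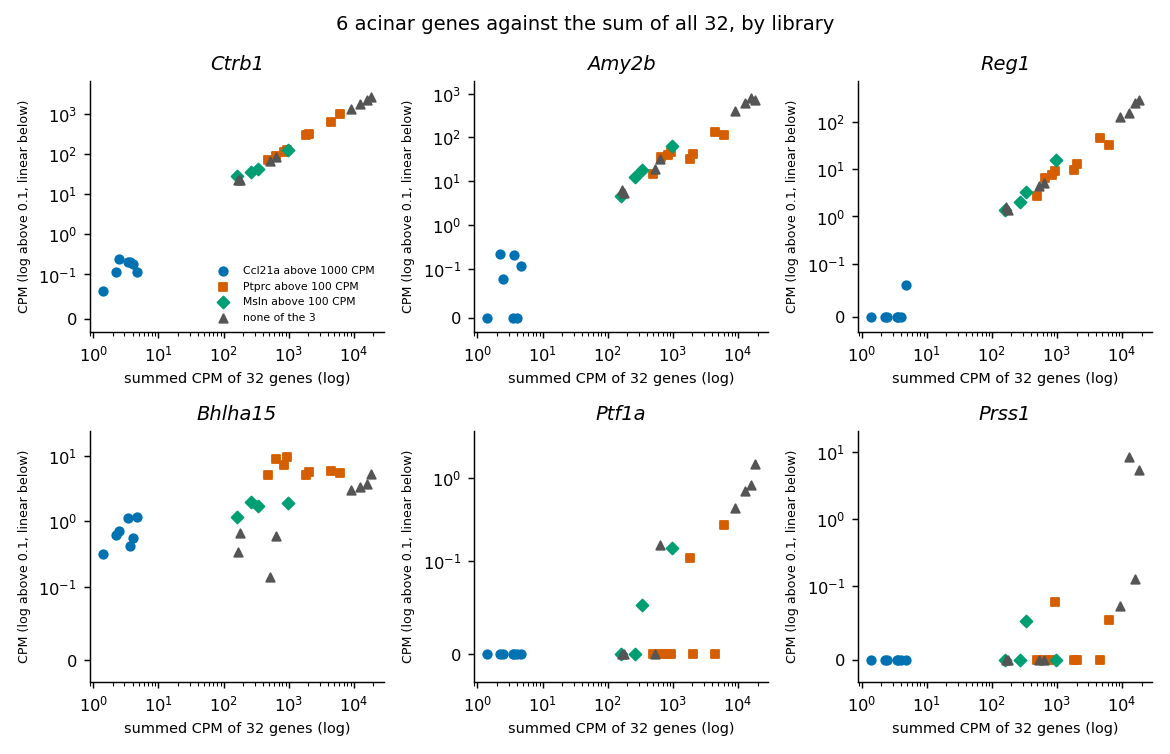
Level of 6 acinar genes (CPM, log axis above 0.1 and linear below) against the summed CPM of all 32 (log axis) in the 27 libraries, with 1 symbol a range. Ctrb1, Amy2b and Reg1 are higher where the sum they are part of is higher, Bhlha15 is highest in the Ptprc-high libraries, Ptf1a is seen mainly where the sum is highest, and Prss1 stands at 8.36 and 5.38 CPM in 2 libraries.

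In the Ccl21a-high libraries the few acinar reads had other proportions. They numbered 319 in the 7 libraries together, 22 to 80 per library. Ctrl (81 reads), Bhlha15 (77) and Cel (60) gave 218 of them, and the other 29 genes gave 9 to 27 reads per library. Ctrl made up 25.4% of the acinar reads there against 3.36% in the other 20 libraries together, and Bhlha15 24.1% against 0.0834%. Ctrb1 made up 5.02% there against 14.65%. The 9 genes with 0 reads in this range were Prss1, Try10, Spink1, Pnliprp2, Amy2a5, Sycn, Reg2, Reg3b and Ptf1a. These libraries had 9609428 to 19372125 reads in genes, within the range of the other libraries.

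Other acinar genes, from a separate list, were set against the mean log2(CPM + 1) of the 32. Of 30 listed genes 29 were matched and 17 reached a mean of 1 CPM. Among all 14937 genes outside the 32 that reached this mean, 0.0603% had an r above 0.9 over the 27 libraries, and 6 of the 17 listed genes did. Among the closest were 2210010C04Rik (r = 0.996), the phospholipase Pla2g1b (0.975), the mucosal scavenger protein Dmbt1 (0.960), the kallikrein Klk1 (0.9385) and the trefoil factor Tff2 (0.930). Others near the top of the ranking over all genes were Smim5 (0.9275), Fam234b (0.913), Aldoc (0.901) and Sst (0.897), the last of which encodes somatostatin of islet delta cells. 2210010C04Rik reached 974.5 CPM and Dmbt1 599 CPM in CD45 TG+ replicate 4. Some listed genes did not follow the 32: r was 0.166 for Gata4, 0.157 for Amy1, 0.150 for Rab3d and -0.21 for Nupr1, genes that other cell types also express.

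No acinar gene was called in any comparison of labelled groups by edgeR's quasi-likelihood F test at a false discovery rate of 0.05. The comparisons used all genes that passed the expression filter, and differences are log2 of the fitted ratio. DESeq2 called none of them either. Prss1 and Ptf1a passed this filter in none of the 6 comparisons. Libraries of the same label differed widely in acinar level, and the standard errors were wide. Most acinar genes rose and fell together over the libraries, so genes fitted in the same direction are not independent results.

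The first question was how the acinar genes differed with the transgene. In the islet CD45 libraries, 24 of the 32 genes were tested and all 24 had a higher fitted level in TG+ (median log2 difference 3.32, against -0.05 for all genes). None was called, and 0% of the 14871 genes were called, with 1402 at an unadjusted p under 0.05 (0 acinar genes). Of the 14871 genes, 46.9% were fitted higher in TG+. The smallest p values were those of Reg1 (4.57 ± 2.77, SE, edgeR adjusted p = 0.604), Amy2b (4.47 ± 2.89) and Rnase1. The summed level was 513 ± 1022 CPM (SD, n = 4) in TG- and 7781 ± 9117 CPM (SD, n = 4) in TG+, and the groups overlapped. Reg1 was at 0, 0, 0 and 12.96 CPM in TG- replicates 1 to 4 and at 2.04, 151, 0.0591 and 289 CPM in TG+ replicates 1 to 4. Without TG- replicate 4 the median difference of the acinar genes was 12.79. The 8 genes not tested were Prss1, Prss3, Try10, Spink1, Amy2a5, Reg2, Reg3b and Ptf1a.

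In the islet gp38-low libraries, 22 of 22 acinar genes tested had a higher fitted level in TG+ (median log2 difference 2.54, against -0.01 for all genes), and 0 were called, as were 0% of 14095 genes (273 at an unadjusted p under 0.05). Of the 14095 genes, 49.4% were fitted higher in TG+. The smallest p values were those of Ctrl (2.73 ± 1.87, SE, edgeR adjusted p = 0.999), Reg1 (3.20) and Cel (2.52). The fitted direction rested on 1 library, TG+ replicate 2, with 9150 CPM in sum. Ctrl was at 24.8, 5.69, 0.914 and 11.3 CPM in TG- replicates 1 to 4 and at 0.6305, 318, 1.25 and 6.52 CPM in TG+ replicates 1 to 4. Without TG+ replicate 2 the median difference was -2.49, with TG+ levels fitted lower. Bhlha15 and 9 other acinar genes were not tested here. The median of the summed level was 257 CPM in TG- and 84.5 CPM in TG+, the opposite order from the fit.

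In the islet gp38-high libraries (2 TG- and 2 TG+, fitted with the gp38-low libraries), 29 of 30 acinar genes had a higher fitted level in TG+, with a median log2 difference of 1.46 against -0.20 for all genes. No acinar gene was called, and 0% of 17937 genes were called (920 at an unadjusted p under 0.05). Of the 17937 genes, 41.5% were fitted higher in TG+. The summed level was 980 and 4518 CPM in TG- and 16022 and 637 CPM in TG+, so the TG+ values lay on either side of both TG- values. Amy2a5 had the smallest p (3.41 ± 2.53, SE, edgeR adjusted p = 0.684), at 0.1435 and 0.124 CPM in TG- and 2.90 and 0.0794 CPM in TG+. Bhlha15 was the 1 gene with a lower fitted level (-0.99 ± 1.48). Without TG+ replicate 1 the median difference was -2.28.

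In the LN FRC libraries, 23 of 24 acinar genes tested had a lower fitted level in TG+ (median log2 difference -0.87 against 0.03 for all genes). None was called, and 0% of 13819 genes were called (981 at an unadjusted p under 0.05). Of the 13819 genes, 52.3% were fitted higher in TG+. Cuzd1 had the smallest p (log2 difference -1.25, edgeR adjusted p = 0.889), at 1.695, 0.175, 2.10 and 16.5 CPM in TG- and 4.35, 0.587 and 1.15 CPM in TG+. The next were Cpb1 (-0.98) and Pnliprp1 (-1.07). Bhlha15 had a higher fitted level (0.75 ± 1.12). The 8 genes not tested were those not tested in the CD45 comparison. The summed level was 1954 ± 2844 CPM (SD, n = 4) in TG- and 997 ± 744 CPM (SD, n = 3) in TG+. Without TG- replicate 4 the median difference was 1.04.

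Between gp38-high and gp38-low libraries, all 30 acinar genes tested had a higher fitted level in gp38-high (median log2 difference 2.46 against -0.03 for all genes). None was called, and 0% of 18396 genes were called (509 at an unadjusted p under 0.05, among them the 2 acinar genes Reg3b and Try10). Of the 18396 genes, 47.3% were fitted higher in gp38-high. Reg3b differed by 3.30 ± 1.46 (SE, edgeR adjusted p = 1) and Try10 by 3.06 ± 1.41. Try10 was at 0.526, 1.24, 7.56 and 0.159 CPM in the 4 gp38-high libraries and at 0 to 3.67 CPM in the 8 gp38-low libraries, so the groups overlapped. Prss3 (2.98 ± 1.51) had the third smallest p, and its difference was -1.42 without gp38-high TG+ replicate 1. Without that library the difference was 0.11 for Reg3b and 0.78 for Try10. The median difference was 0.58 without gp38-high TG+ replicate 1 and 4.93 without gp38-low TG+ replicate 2.

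Islet stromal libraries (gp38-high and gp38-low) and LN FRC libraries showed no difference in acinar level larger than the spread between libraries. The median log2 difference of 30 acinar genes was 0.19 against 0.14 for all genes, with 25 fitted higher and 5 lower in islet stroma. None was called, and 0% of 18396 genes were called, with 6801 at an unadjusted p under 0.05 (0 acinar genes). Of the 18396 genes, 55.4% were fitted higher in islet stroma. Bhlha15 had the smallest p (-1.46 ± 0.74, SE, edgeR adjusted p = 0.16), followed by Amy2a5 (1.19 ± 1.22) and Reg1 (1.16 ± 1.32). With the libraries that go against their labels left out, an alternative chosen after seeing the data, the Bhlha15 difference was 1.15 and the median difference of the acinar genes 1.72. The median difference turned negative without any 1 of 5 libraries: -1.08 without gp38-low TG+ replicate 2, -0.74 without gp38-high TG+ replicate 1, -0.33 without gp38-high TG- replicate 2, -0.06 without gp38-low TG- replicate 1 and -0.01 without LN FRC TG- replicate 2.

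**Figure D5:**
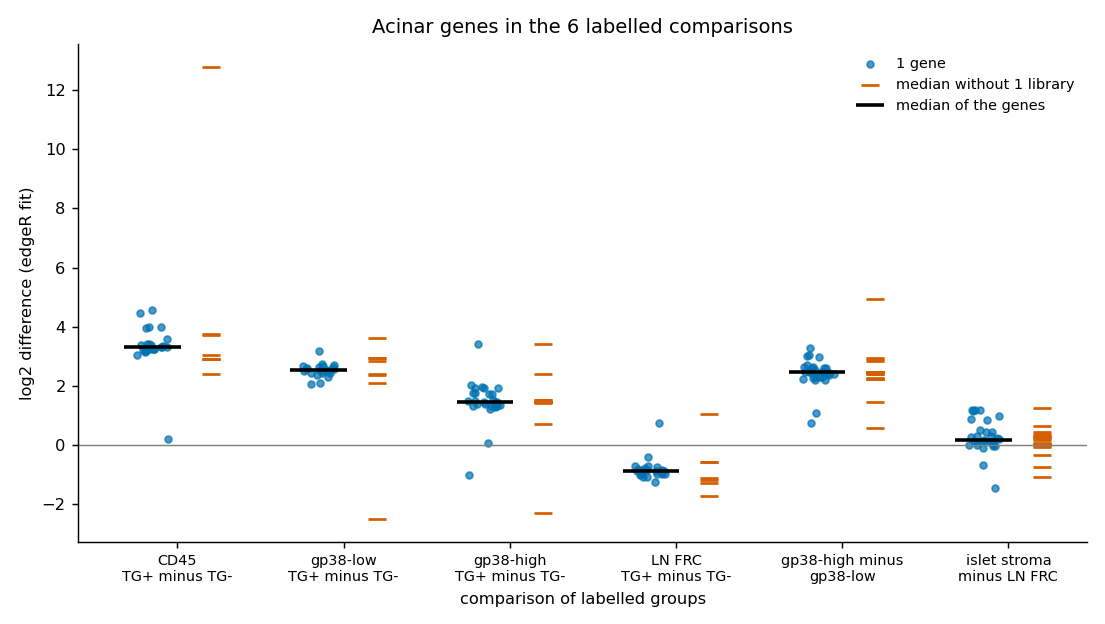
Fitted log2 differences of the acinar genes tested in each of the 6 comparisons of labelled groups (points), their median (black line) and the median when 1 library is left out in turn (orange marks). Leaving out 1 library moves the median to 12.79 in the CD45 comparison and across 0 in the gp38-low, gp38-high, LN FRC and islet stroma comparisons.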

How the data were processed

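The authors deposited 1 table of raw read counts per gene for each library, with the columns that STAR writes when it counts genes. Per the submitters' processing notes, the build was mm10 and the tools were STAR 2.5.2a, bcl2fastq 2.17 and Trim Galore 0.4.3. Per the labels' protocols, total RNA of sorted cells was freed of ribosomal RNA before library preparation. The sources used here do not name the authors' annotation release. STAR counts uniquely mapped reads only. The reverse-strand column was used, since the forward column held 6.67 to 15.3% of the reads on both strands. The 4 lines that name no gene were left out of library sizes: unmapped reads took 19.4 to 67.7% of a library, multimapped reads 4.98 to 7.28%, reads outside genes 5.85 to 26.1% and ambiguous reads 0.308 to 0.665%. The non-coding RNA Gm26917 took 53127 to 359860 CPM and stayed in the CPM total. It was at 208299 to 359860 CPM in the Ptprc-high libraries and at 53913 to 79344 CPM in the remaining libraries. With Gm26917 left out of the total, or with unstranded counts, the median acinar sum was at most 1963 CPM in the Ptprc-high libraries, against 1395. In the remaining libraries the median was at most 5291 CPM, against 4893. Of 54446 identifiers 54409 took a symbol, and positions and exon lengths came from GENCODE M21 (GRCm38).

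CPM, shares and correlations (pseudocount 1) were computed in Python 3.11.15. Groups were compared with edgeR 4.0.16 in R 4.3.3 (TMM, filterByExpr, robust quasi-likelihood F test, Benjamini-Hochberg adjustment over all genes at 0.05). For the transgene, separate fits were made of the CD45, gp38-low and LN FRC libraries, and gp38-high was fitted with gp38-low. Comparisons between populations used the 19 stromal libraries. Each SE is the absolute log2 difference divided by the square root of F. The fit was tested on simulated data in which all genes varied to the same degree between libraries beyond counting error. Acinar genes varied widely within labelled groups, so the simulation does not cover genes like them. Alternatives were DESeq2 1.42.0, RLE size factors, no low-count filter, unstranded counts, the acinar genes and Gm26917 left out of library sizes, a replicate block, and leaving out 1 library at a time.

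The acinar genes and the marker lists were chosen with earlier results of these data known. Values per library were given for the transcription factors, for the member of each role with the highest mean and the one with the lowest correlation with the others, and for the 3 members with the smallest p in each comparison. Genes outside the 32 were the 10 with the highest correlation (1 of them is not reported here), the genes that set the ranges, and list genes. Some other values were named after they were seen (Clps, Reg2, Jchain and the list genes that did not follow).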

Additional observations from a re-analysis of the deposited data

Results flagged for a closer look

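The 19 acinar genes given per library and the sum over all 32 were compared within each labelled group of 4 libraries, 96 values in all. A value is given here where the highest or the lowest library of a group stood apart from the next. The gap had to take up more of the group's range than a set cut-off. Groups of 4 values drawn from a normal distribution pass this cut-off in about 1 of 20 cases. Levels here are skewed and groups mix the ranges of measured values, so that rate need not hold. The rule was met by 53 values in 6 libraries, each value the highest of its group. The genes move together, so values of 1 library are not independent. Where the other 3 libraries of a group had no read, the gap fills the whole range whatever the count, so a value of few reads says little.

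In gp38-low TG+ replicate 2 all 20 values met this rule. The sum was 9150 CPM, and the next highest library of its group had 165.3 CPM. Among proteases and their inhibitor the levels were 486.8 CPM for Cpb1, 0.07194 for Prss1, 1.583 for Prss3, 3.669 for Try10, 1333 for Ctrb1, 317.9 for Ctrl and 4.388 for Spink1. Among lipases they were 1234 CPM for Pnlip, 325.4 for Pnliprp1 and 1050 for Cel. Amy2a5 was at 1.295, Amy2b at 406 and Rnase1 at 132.1 CPM. Gp2 was at 87.83, Cuzd1 at 24.46, Reg1 at 126.8 and Reg3b at 0.5036 CPM. Ptf1a was at 0.4316 and Bhlha15 at 2.949 CPM. The other 3 libraries had no read of Prss1, Spink1, Amy2a5, Reg3b or Ptf1a, which had 1, 61, 18, 7 and 6 reads here.

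CD45 TG- replicate 4, a Ptprc-high library in a group whose other 3 libraries were Ccl21a-high, stood apart in 16 values, with a sum of 2046 CPM. Its levels were 97.13 CPM for Cpb1, 0.2834 for Prss3, 0.4959 for Try10, 326.2 for Ctrb1, 70.21 for Ctrl and 0.5668 for Spink1. Pnlip was at 303.5, Pnliprp1 at 73.18, Cel at 230.3, Amy2b at 42.22 and Rnase1 at 20.54 CPM. Gp2 was at 24.09, Cuzd1 at 5.668, Reg1 at 12.96 and Bhlha15 at 5.668 CPM. Prss3, Try10 and Spink1, with 4, 7 and 8 reads here, had none in the other 3 libraries, nor had Gp2 or Reg1.

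LN FRC TG- replicate 4 stood apart in 12 values, with a sum of 6194 CPM. Its levels were 3.406 CPM for Try10, 1026 for Ctrb1, 214.3 for Ctrl, 859.7 for Pnlip, 248.8 for Pnliprp1 and 762.6 for Cel. Rnase1 was at 63.3, Gp2 at 64.06, Cuzd1 at 16.49, Reg3b at 0.2703 and Ptf1a at 0.2703 CPM, both with 5 reads here and none in the other 3 libraries.

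The other 5 values were in 3 libraries. Reg3b was at 6.251 CPM in CD45 TG+ replicate 4. In gp38-low TG- replicate 1, Try10 was at 0.174 CPM. In gp38-low TG- replicate 4, Prss1 was at 0.05263, Reg3b at 0.1053 and Ptf1a at 0.05263 CPM. The last 4 of these rest on 1 or 2 reads each, against none in the other libraries of the group.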

How the results depend on the processing

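No acinar gene was called by edgeR or DESeq2 under any alternative. DESeq2 called 427 genes over all in the CD45 comparison, 1 in gp38-low, 40 in gp38-high, 549 in LN FRC, 147 between gp38-high and gp38-low and 4831 between islet stroma and LN FRC. Values below are log2 differences. Same-numbered TG- and TG+ libraries of the same labelled population correlated at -0.128 to 0.639 over 13 pairs, with 3 above 0.1. With 14 libraries against their labels, these values cannot decide whether the numbers pair libraries. Same-numbered libraries of different populations were not compared. With a replicate block the acinar median was 6.48 in CD45, -0.52 in gp38-low (Ctrl -0.09, Reg1 -0.54, Cel -0.87) and -1.14 between islet stroma and LN FRC (Reg1 -0.15). With the 14 libraries that go against their labels left out, an alternative chosen after seeing the data, Bhlha15 was at 1.15 between islet stroma and LN FRC, and the CD45 and LN FRC comparisons could not be fitted.

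Leaving out 1 library at a time, the CD45 median ran from 2.42 to 12.79 (highest without TG- replicate 4) and genes called from 0 to 519 (without TG+ replicate 3). The gp38-low median ran from -2.49 to 3.61, Ctrl from -1.89 to 3.63, Reg1 from -2.43 to 4.26 and Cel from -2.62 to 3.39, all lowest without TG+ replicate 2. In gp38-high, where a group is left with 1 library assumed to vary like the others, the median ran from -2.28 to 3.41, Amy2a5 from -0.68 to 4.38, Try10 from -2.52 to 3.15 and Spink1 from -1.88 to 3.06, all lowest without TG+ replicate 1. In LN FRC the median ran from -1.72 to 1.04, Cuzd1 from -2.54 to 0.86, Cpb1 from -1.72 to 0.78 and Pnliprp1 from -2.23 to 1.03, all highest without TG- replicate 4. Between gp38-high and gp38-low the median ran from 0.58 to 4.93 and Prss3 from -1.42 to 4.61. Between islet stroma and LN FRC the median ran from -1.08 to 1.25, Reg1 from -0.24 to 1.9 and genes called from 0 to 3720 (without gp38-low TG- replicate 1). The causes were not tested. Without scaling by gene length the protease share was 58.5% and the lipase share 31.0%. The 7 acinar genes under 1000 reads are limited by depth. Proportions in the Ccl21a-high range rest on few acinar reads, 22 to 80 per library.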
